A study of Homo sapiens with 12 samples.

Results

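Senescent fibroblasts that had been kept under ruxolitinib, an inhibitor of the Janus kinases, were compared with proliferating fibroblasts of the same line by RNA sequencing. The libraries were chosen by their labelled group: 3 libraries of ruxolitinib-treated senescent cells and 3 of proliferating cells, 6 of the 12 in the series. All came from wild-type IMR90, an established line of human lung fibroblasts. The proliferating cells carried the label "No treatment", and their time of harvest is not given in the sources used here. The senescent cells had received 20 Gy of ionizing radiation within 10 min, then 2 µM ruxolitinib from day 4 on, renewed on days 6, 8 and 10, and were collected on day 11 after irradiation. A further 3 libraries from irradiated cells that received DMSO were used beside them. These DMSO cells had the same 20 Gy within 10 min and were also collected on day 11. Their days of dosing are not given in the sources used here. The remaining 3, from irradiated cells given palbociclib, were not compared. They entered the filter on low values, the shared estimate of spread, the principal components and the scaling of alternative fits. No proliferating group with ruxolitinib or DMSO was among these samples. Irradiation, time in culture and drug therefore cannot be told apart in the comparison with proliferating cells.

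Senescence is a lasting exit from the cell cycle that DNA damage can trigger through p53, and it usually comes with loss of lamin B1 and secretion of cytokines, chemokines and proteases, the senescence-associated secretory phenotype. Interferons act through receptors bound to the kinases JAK1, JAK2 and TYK2, which phosphorylate STAT factors. Activated STAT factors bind interferon response elements and related sites in the promoters of antiviral genes. Ruxolitinib inhibits JAK1 and JAK2. Some antiviral genes can also be switched on without JAK signalling, through IRF3 or NF-κB. Many secretory cytokines and chemokines are known as targets of NF-κB and C/EBPβ.

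The core of the interferon response element is a pair of GAAA blocks spaced by any 2 bases, which reads as a pair of TTTC blocks on the other strand. Promoter windows from 250 bases before to 50 bases after each RefSeq start (GRCh38.p14) were searched on both strands, and 3.57% of the 35116 windows held at least 1 match. Only 73 of the 96 tested interferon genes had a window in the table, too few for a share over the list, so that check is void and the promoters are shown as examples, each chosen because it holds a match. The stretches below come from genes that ended above the proliferating level under ruxolitinib (CXCL10, HERC5, RSAD2, IFIT1), not distinguishable from it (IFI6) or below it (OAS3, IFITM1). All lie upstream of the start and are written 5′ to 3′ on the strand of the gene, with matches to the core in capitals.
CXCL10, chr4:76023689-76023738, minus strand: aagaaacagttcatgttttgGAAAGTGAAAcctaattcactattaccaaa
HERC5, chr4:88456974-88457023, plus strand: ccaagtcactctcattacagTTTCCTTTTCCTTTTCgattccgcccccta
RSAD2, chr2:6877612-6877661, plus strand: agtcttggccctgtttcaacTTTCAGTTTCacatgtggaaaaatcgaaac
IFIT1, chr10:89392487-89392536, plus strand: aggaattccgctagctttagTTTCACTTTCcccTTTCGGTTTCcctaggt
IFI6, chr1:27672319-27672368, minus strand: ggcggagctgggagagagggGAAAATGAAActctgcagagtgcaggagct
OAS3, chr12:112938311-112938360, plus strand: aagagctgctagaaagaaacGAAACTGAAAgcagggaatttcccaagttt
IFITM1, chr11:313980-314029, plus strand: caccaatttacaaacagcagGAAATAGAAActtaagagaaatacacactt
A match is a run of letters and says nothing of binding.

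The deposited values are read counts per gene divided by 1 factor per library, called normalized counts below. Recovered reads ranged from 17234093 to 20766998 in the proliferating libraries and from 18713012 to 21750962 in the ruxolitinib libraries. The DMSO libraries held fewer, from 14106799 to 16503624. The first principal component of all 12 libraries held 68.2% of the variance. Its scores ran from -80.1 to -76.1 in proliferating libraries and from 23.6 to 31.8 in the senescent ones, palbociclib included. The median SD of a gene over 3 libraries was 0.113 on the log2 scale in proliferating and 0.0622 in ruxolitinib-treated cells. The labelled cell type had its markers. The 10 fibroblast markers summed to between 846352 and 871187 normalized counts in a proliferating library, 425991 and 436328 under DMSO, and 534285 and 538231 under ruxolitinib. Of those 10, 7 were lower under ruxolitinib than in proliferating cells and 2 higher (THY1 and DCN), and COL1A1, COL1A2 and COL3A1 are also members of the matrix list below. Markers of other cell types were low throughout. From proliferating to ruxolitinib-treated libraries, 4 endothelial markers went from sums of 5.55 to 9.34 to sums of 31.6 to 56.7, and 5 immune markers from 2.22 to 8.30 to 17.1 to 27.8. The 6 epithelial markers summed to between 10.5 and 38.8 and to between 23.4 and 28.5, with KRT5 at 0 in all 6 libraries. VWF and CD14 were called higher, at no more than 35.1 and 20.8 normalized counts. The part of these shifts in the results was not tested. Nothing in the labels says that the replicates came from separate cultures, so p-values measure the spread between these libraries, which may be technical.

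Ruxolitinib-treated senescent cells differed from proliferating cells in most of what was measured. Differences are given as log2(normalized count + 1) with the standard error (SE) from limma, a linear model fitted across all genes. A gene was called at a Benjamini-Hochberg adjusted p under 0.05. Of 11242 tested genes, 3670 were higher (32.6%) and 4443 lower (39.5%), 72.2% in either direction. At least 2-fold changes were called upward for 1201 genes (10.7%) and downward for 1105 (9.83%). The 2 groups did not overlap for 8569 genes (76.2%). These shares are the background for every count against proliferating cells. The balance between directions depended on scaling: 45.2% of calls were upward as deposited, 61.7% with each library scaled to the same total and 59.4% with the same upper quartile. Those scalings moved the median of all genes by 0.21 and 0.18 on the log2 scale, from -0.06 as deposited. Differences of about that size depend on the scaling. Since bulk RNA was measured, fewer cells of a kind and less RNA per cell cannot be told apart.

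**Figure D1:**
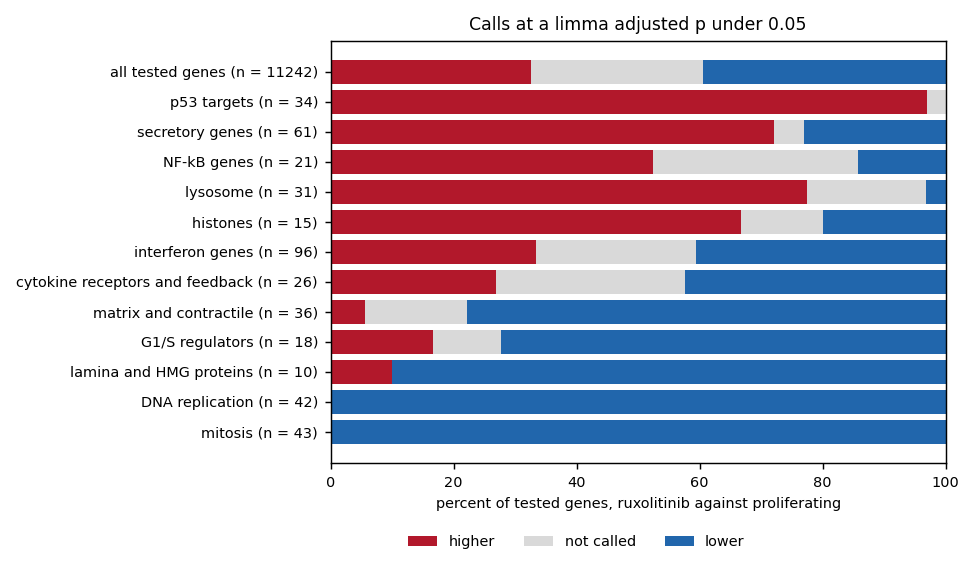
Share of tested genes (percent, horizontal axis) called higher, not called or called lower in ruxolitinib-treated senescent than in proliferating cells, for each gene list with its number of tested genes. All tested genes split into 32.6% higher and 39.5% lower, the p53 list was almost entirely higher, and the DNA replication and mitosis lists were entirely lower.

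The p53 targets CDKN1A and GDF15 were high under ruxolitinib. CDKN1A encodes p21, the CDK inhibitor that p53 induces. It read 3165, 3523 and 3479 normalized counts in proliferating cells and 31221, 30752 and 33259 under ruxolitinib. The groups stood far apart, and the difference was 3.23 ± 0.06 (SE, n = 3 per group; limma adjusted p 2.33e-15). In DMSO-treated senescent cells CDKN1A read 28501, 29824 and 29125, and the difference between ruxolitinib and DMSO was 0.12 (limma adjusted p 0.328). GDF15, a secreted stress cytokine and p53 target, read 116, 134 and 114 in proliferating cells and 3989, 3975 and 4473 under ruxolitinib, a difference of 5.08 ± 0.09.

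Of 34 tested p53 targets, 33 were higher under ruxolitinib than in proliferating cells and none was lower, with a median of 1.46. All 13 arrest genes of the list were called, among them MDM2, the ubiquitin ligase that limits p53 (1.83), BTG2, an antiproliferative factor (3.76), TP53INP1 (2.62), and ZMAT3, an RNA-binding protein (2.14). Among the 13 death genes 12 were called, including FAS, a death receptor (1.75). BAX, the pore-forming death effector, was the exception: it read between 1530 and 1899 in proliferating cells and between 1621 and 1695 under ruxolitinib. In the direct comparison with DMSO, 4 of the 34 were higher under ruxolitinib and none lower, where 1.10% and 3.42% of all tested genes were called higher and lower (4.52% in either direction). These 4 were TNFRSF10D, ZMAT3 (0.36), SESN1 (0.31) and CCNG1 (0.29).

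TNFRSF10D, a decoy receptor that binds the death ligand TRAIL without passing on a death signal, separated all 3 groups. It read 2563, 2393 and 2640 in proliferating cells, 4233, 4838 and 4670 under DMSO, and 16073, 15610 and 15933 under ruxolitinib. It lay 2.65 ± 0.06 above proliferating cells and 1.79 above DMSO (limma adjusted p 4.82e-11). No other gene outside the interferon list that was called against both groups lay further above DMSO, among those with a mean of at least 100 in some group.

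CDK inhibitors did not move as a group. CDKN2B, which encodes p15, was higher (190, 150 and 197 against 423, 456 and 474; 1.34 ± 0.10). CDKN2A, which encodes p16, read 177, 180 and 143 in proliferating and 199, 173 and 197 in ruxolitinib-treated cells. Those ranges overlapped, and CDKN2A was not called (0.19, limma adjusted p 0.154), although it passed with both rescalings and with edgeR. CDKN2C, which encodes p18, fell by 3.55 and CDKN1B, which encodes p27, fell by 1.23.

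The proliferative programme was low in every library of ruxolitinib-treated cells. LMNB1, which encodes lamin B1 of the nuclear lamina, had the largest fall among the genes named by rule: 3784, 4045 and 3905 normalized counts in proliferating cells and 119, 126 and 142 under ruxolitinib (-4.92 ± 0.14; limma adjusted p 1.13e-13). LMNB2 (-2.19), LBR, the lamin B receptor (-2.56), and TMPO, a lamin-binding protein (-3.53), were also lower, and LMNA fell by 0.52. The chromatin proteins HMGB1 (-2.26) and HMGB2 (-3.59) were lower, HMGA1 fell by 0.39, and HMGA2 was the 1 member of these 10 genes called higher (0.44).

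All 42 DNA replication genes were lower than in proliferating cells, 41 of them by at least 2-fold, with a median of -2.49. They included MCM2, of the replicative helicase (-2.80), RRM2, of ribonucleotide reductase (-2.92), and PCNA, the sliding clamp (-1.28). All 43 tested mitosis genes were at least 2-fold lower, with a median of -3.53. MKI67, the proliferation antigen, read 13458, 10615 and 15114 in proliferating cells, 977, 1017 and 1038 under DMSO, and 726, 678 and 697 under ruxolitinib. In the test of ruxolitinib against DMSO, 27 of the 43 mitosis genes and 6 of the 42 replication genes were lower and none was higher, where 3.42% of all tested genes were lower and 1.10% higher. MKI67 (-0.53; limma adjusted p 0.00828), CDC20, the activator of the anaphase-promoting complex (-0.53), CENPA, the centromeric histone (-0.81), and CCNB1, cyclin B1 (-0.37), were among the 27.

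The G1/S regulators were mixed. All 10 E2F and pocket protein genes were lower, among them E2F1 (-2.00) and E2F8 (-3.81). The 3 D-type cyclins, partners of CDK4 and CDK6, were higher: CCND1 (1.79), CCND3 (0.80) and CCND2. CCND2 read 71.6, 138 and 107 in proliferating cells, 3722, 3649 and 3252 under DMSO, and 5072, 4923 and 5441 under ruxolitinib, 5.65 ± 0.15 above proliferating cells.

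**Figure D2:**
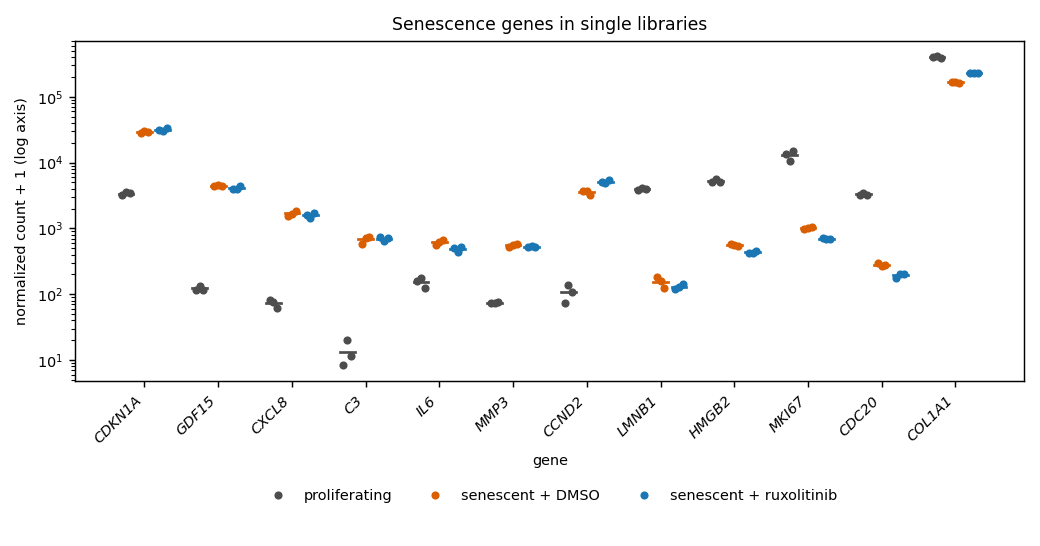
Normalized count + 1 on a log axis for 12 genes, with 1 point per library and a bar at the mean of each group of 3. CDKN1A, GDF15, CXCL8 and C3 are high in both senescent groups and LMNB1, HMGB2, MKI67 and CDC20 are low in both, while COL1A1 under ruxolitinib lies between the other groups.

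The upward changes named by size alone included genes outside the lists. MT1G, a metallothionein, totalled 3 reads in proliferating cells and 442 under ruxolitinib, a ratio of 122 with a 95% counting interval of 41.5 to 595. Metallothionein genes are near-identical, and reads may have been split among copies. PDE4C, a cAMP phosphodiesterase, read 5.19, 4.44 and 1.90 in proliferating cells and 289, 295 and 270 under ruxolitinib (5.95 ± 0.24). SLC16A6, a monocarboxylate transporter family member (5.34), ABCA8, a lipid transporter (4.57), SULF2, an extracellular sulfatase (4.30), and NPAS1, a transcription factor (4.30), completed the rule's upward list beside C3, CCND2, GDF15, CXCL1, H4C8 and CXCL8. Of the 12 downward changes 7 were genes of the mitosis list, and LMNB1 was followed by SAPCD2 (-4.54), CENPA (-4.39), the mitotic kinase NEK2 (-4.22), MKI67 (-4.20), the ligand WNT7B (-4.16), CDCA7 (-4.16), MYBL2 (-4.14), NCAPH of condensin (-4.10), CDC20 (-4.07) and the kinases AURKB (-4.06) and PLK1 (-3.98).

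Secretory genes were mostly higher under ruxolitinib than in proliferating cells. Of 61 tested, 44 were higher (72.1%) and 14 lower, with a median of 1.05, and 35 of the 44 were at least 2-fold higher. Under DMSO 47 were above proliferating cells and 10 below, where 33.0% and 39.3% of all tested genes were. Growth factors were split: of 17 tested, 10 were higher under ruxolitinib and 7 lower (41.2%), where 39.5% of all tested genes were lower. Among 8 tested chemokines 7 were higher. CXCL8, which encodes the neutrophil attractant interleukin 8, read 79.9, 75.4 and 60.9 in proliferating cells and 1581, 1461 and 1713 under ruxolitinib. The groups did not overlap, and the difference was 4.45 ± 0.11 (limma adjusted p 2.65e-14). Under DMSO CXCL8 read 1564, 1674 and 1835, and ruxolitinib and DMSO differed by -0.09 (limma adjusted p 0.759).

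CXCL1 (5.02 ± 0.51), CXCL2 (ratio 24.4, 95% counting interval 10.2 to 76.2) and CXCL3 (ratio 20.9, 9.37 to 57.8) were higher too, though these 3 are near-identical copies whose reads may be shared. CCL20, a lymphocyte attractant, totalled so few reads in proliferating cells that its ratio of 80.5 spans 14.1 to 3210. CCL2, the monocyte attractant, was 0.91 higher. The 1 chemokine called lower was CXCL12, a stromal chemokine (-0.54), a call that was lost with both rescalings.

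Cytokines of the list were higher in 6 of 9 cases. IL6 read 156, 175 and 125 in proliferating cells and 512, 435 and 516 under ruxolitinib (1.69 ± 0.13), and 557, 623 and 661 under DMSO. Ruxolitinib and DMSO differed in IL6 by -0.33 (limma adjusted p 0.191). The upstream cytokines IL1A (3.21 ± 0.44) and IL1B (2.90 ± 0.40) were low in count, with at most 55.0 and 125 normalized counts in a ruxolitinib library. LIF, an IL-6 family cytokine, was 2.18 higher than in proliferating cells and 0.29 above DMSO (limma adjusted p 0.0414). IL11, of the same family, was lower (-0.63).

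Among proteases and inhibitors 11 of 15 were higher. MMP3, a stromelysin, read 72.6, 73.2 and 75.2 in proliferating cells and 519, 538 and 513 under ruxolitinib (2.81 ± 0.10). SERPINB2, an inhibitor of plasminogen activators, was 4.10 ± 0.15 higher, MMP1, a collagenase, 0.88, and the metalloprotease inhibitors TIMP1 and TIMP3 1.19 and 1.67. C3, the central complement component, read 7.26, 18.9 and 10.5 in proliferating cells, 575, 717 and 747 under DMSO, and 739, 642 and 722 under ruxolitinib (5.83 ± 0.22). The secreted antagonists FST (-1.19) and GREM1 (-1.05) were the 2 list genes at least 2-fold lower than in proliferating cells.

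In the direct test against DMSO 50 of the 61 secretory genes were not called, 8 were lower under ruxolitinib (13.1%) and 3 higher (4.92%), where 3.42% of all tested genes were lower and 1.10% higher. By role the 8 were 4 growth factors, 1 cytokine, 1 IGF binding gene and 2 prostaglandin, receptor and complement genes. They included BMP2, a TGF-β family ligand (-0.64), PTGS2, the inducible cyclooxygenase (-0.55), ICAM1, an adhesion molecule (-0.42), and IGFBP3 (-0.32). These 4 were above proliferating cells (1.02, 0.95, 1.53 and 0.45), which is not said of the others. IGFBP2, an IGF carrier, lay above both groups: 72.6, 75.4 and 80.0 in proliferating cells, 120, 154 and 157 under DMSO, and 226, 221 and 240 under ruxolitinib. These comparisons share the ruxolitinib libraries and are not independent of each other.

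**Figure D3:**
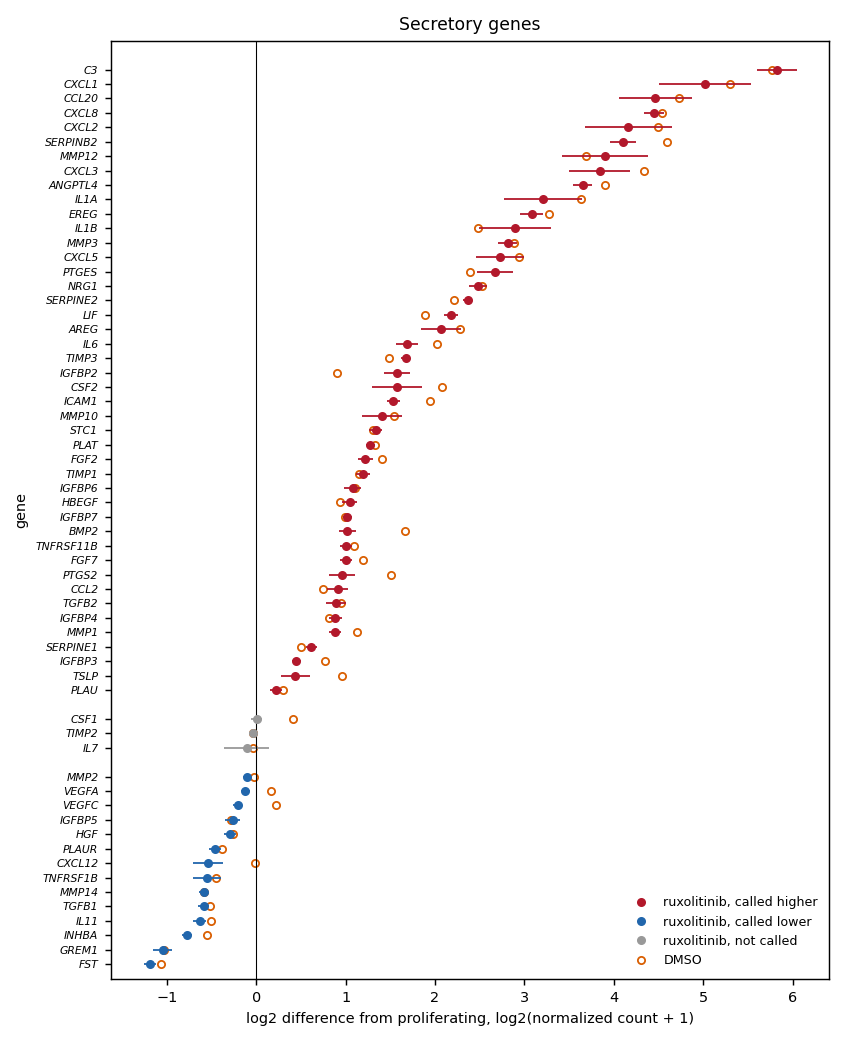
Log2 difference from proliferating cells for the 61 tested secretory genes, sorted within called lower, not called and called higher. Filled points are ruxolitinib with SE bars and open circles are DMSO; both use the same 3 proliferating libraries. For CXCL8 the points lie at 4.45 and 4.54, and most pairs lie close together.

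NF-κB genes were higher in 11 of 21 cases and lower in 3, with a median of 0.34. SOD2, a mitochondrial superoxide dismutase (1.49), IRAK2, an IL-1 receptor kinase (1.19), and the inhibitor NFKBIZ (1.37) were at least 2-fold higher. TNFAIP3, the inhibitor also called A20, read 249, 206 and 249 in proliferating cells, 647, 550 and 679 under DMSO, and 418, 344 and 411 under ruxolitinib. It thus lay between the other groups, 0.73 above proliferating cells and -0.68 from DMSO. NFKB1, which encodes the p50 precursor, fell by 0.83 from the proliferating level, and BCL3, a nuclear cofactor, fell by 1.49. CEBPD, a C/EBP factor, was lower under ruxolitinib than in either group (-0.55 from proliferating, -0.78 from DMSO).

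Matrix and contractile genes were lower in 28 of 36 cases and higher in 2 (COL11A1 and LOX), with a median of -0.70. COL1A1, the main chain of type I collagen, read 397572, 414584 and 391817 in proliferating cells, 166302, 167463 and 163418 under DMSO, and 232372, 232374 and 229002 under ruxolitinib. The ruxolitinib libraries lay between the others, 0.48 above DMSO (limma adjusted p 6.33e-05). ELN, elastin, showed the same order at lower counts, with 1274, 1309 and 1217, then 104, 110 and 118, then 147, 182 and 168. COL1A2 and COL3A1 were 0.36 and 0.21 above DMSO, and in all 6 of the 36 genes were called above DMSO, where 1.10% of all tested genes were, and 1 (ACTG2, a smooth muscle actin, -0.26) below it, where 3.42% were. ACTA2, smooth muscle actin, fell by 1.80 and TAGLN, an actin-binding protein, by 0.79 from the proliferating level.

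Lysosomal genes were higher in 24 of 31 cases with a median of 0.37, which became 0.57 and 0.54 with the rescalings. FUCA1, a fucosidase, was 3.59 higher, ASAH1, acid ceramidase, 1.12 and CTSD, a cathepsin, 0.73. GLB1, which encodes the β-galactosidase stained in senescent cells, rose by 0.23, a size that the rescalings also move, and GUSB, β-glucuronidase, was the 1 gene called lower (-1.11). Clustered histone genes were called higher in 9 of 11 tested cases. The list held 20 clustered genes, 19 of them with deposited values, and only the 11 passed the filter. The median over all tested histone genes, unclustered ones included, was 2.76. It was 1.39 with no filter, so its size depends on the filter. Examples of the 9 were H2AC6 (32.2, 47.7 and 38.1 against 639, 753 and 709) and H2BC21 (3.64). H4C8 was 4.59 higher. Histone copies are near-identical and the libraries were poly(A)-captured, so these counts cover polyadenylated histone RNA and may be split among copies. The unclustered variants H2AX (-2.58) and H2AZ1 (-2.42) were lower, and H2AJ, a variant known from senescent fibroblasts, was higher (1.39).

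Interferon genes did not share a direction against proliferating cells. The list held 124 genes, of which 121 were in the table and 96 reached a mean of 10 normalized counts. Under ruxolitinib 32 of the 96 were higher than in proliferating cells (33.3%), 39 lower (40.6%) and 25 not called, shares near those of all tested genes. The median was -0.12, against -0.06 over all genes, and it turned to 0.09 and 0.07 with the rescalings. At least 2-fold differences were called for 17 of the 96 genes upward and 13 downward, where 10.7% and 9.83% of all tested genes were. Against DMSO, 74 of the 96 were lower under ruxolitinib, where 3.42% of all genes were, with a median of -1.26. DMSO-treated cells had 69 of the 96 above proliferating cells, where 33.0% of all genes were (39.3% were lower, 72.4% in either direction), and the 3 comparisons share libraries pairwise. The filter uses the mean over all 12 libraries, so 6 genes passed although both groups compared here had means under 10 (OAS1, OAS2, RSAD2, CMPK2, IFI44L and BST2). A further 8 had a mean under 10 in proliferating cells only (DHX58, TLR3, OASL, HERC5, CXCL10, CXCL11, TNFSF10 and TNFSF13B), and 0 under ruxolitinib only. The filter thus let in genes low in proliferating cells through the senescent groups, which favours upward calls among low genes.

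**Figure D4:**
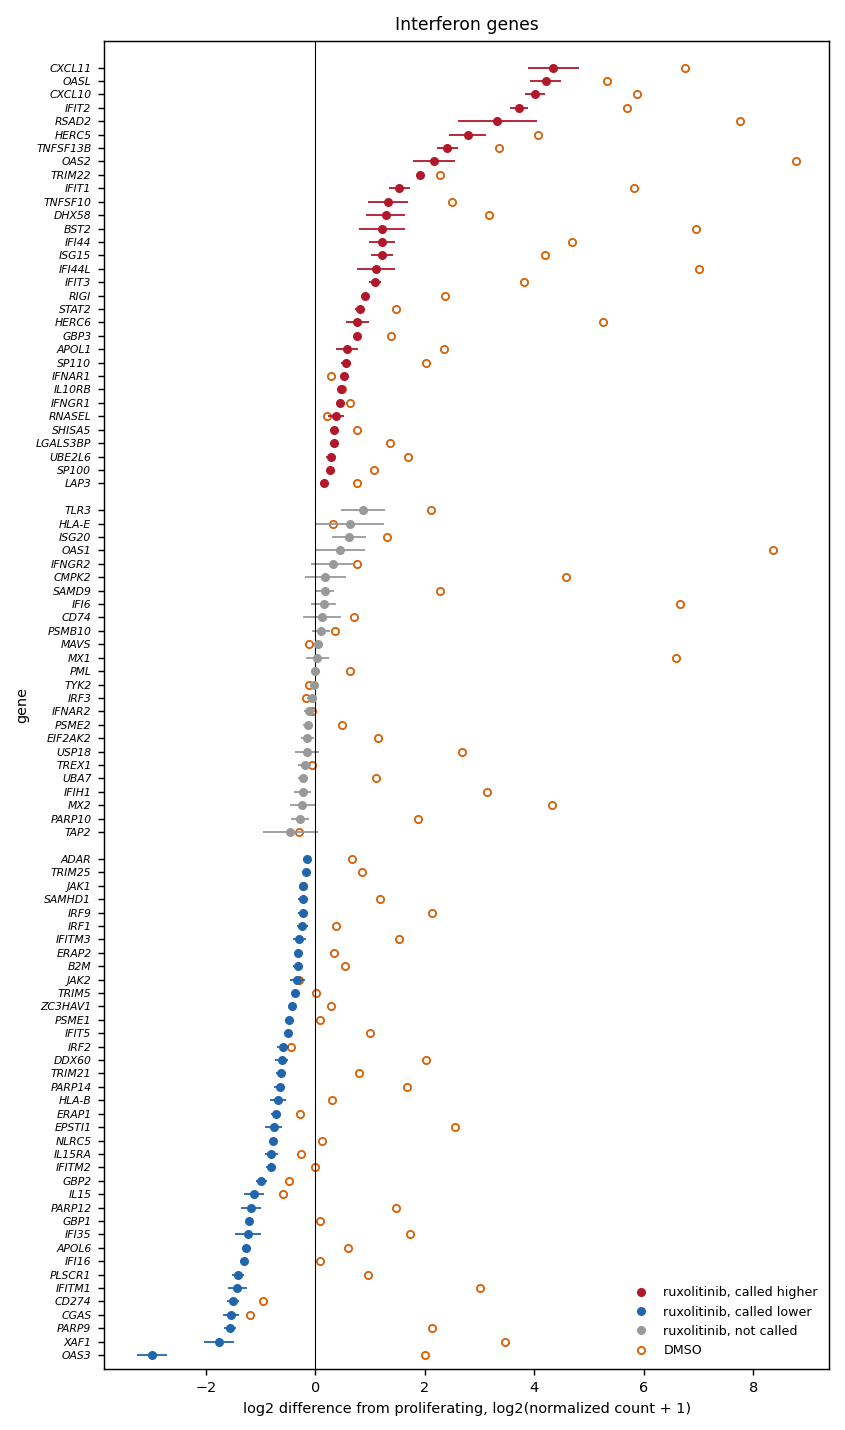
Log2 difference from proliferating cells for 95 of the 96 tested interferon genes, sorted within called lower, not called and called higher. Filled points are ruxolitinib with SE bars, open circles are DMSO, and both use the same proliferating libraries. The ruxolitinib points run from -2.98 for OAS3 to 4.34 for CXCL11, and most open circles lie to their right.

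The chemokines CXCL10 and CXCL11, ligands of CXCR3 on T cells, stayed furthest above the proliferating level with OASL and IFIT2. CXCL10 read 8.30, 7.76 and 4.76 in proliferating cells, 399, 491 and 488 under DMSO, and 114, 123 and 139 under ruxolitinib. The 3 groups did not overlap. Ruxolitinib lay 4.02 ± 0.18 above proliferating cells (limma adjusted p 1.73e-11) and differed from DMSO by -1.86. CXCL11 read 0, 2.22 and 0 in proliferating cells and 24.7, 35.1 and 28.0 under ruxolitinib, a ratio of 42.3 with a 95% counting interval of 11.4 to 354.

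OASL, an OAS-like protein that enhances RIG-I signalling, read 3.11, 1.11 and 1.90 in proliferating cells, 121, 124 and 106 under DMSO, and 51.7, 52.2 and 55.9 under ruxolitinib. Its ratio to proliferating cells was 25.9 (95% counting interval 11.7 to 71.3). IFIT2, which binds viral RNA, read 29.1, 22.2 and 38.1, then 1504, 1566 and 1614 under DMSO, then 377, 430 and 379 under ruxolitinib (3.72 ± 0.17 above proliferating). HERC5, the ligase that attaches ISG15 to proteins, was 2.78 ± 0.34 higher than in proliferating cells, and TNFSF13B, the B cell factor BAFF, 2.41 ± 0.20.

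TRIM22, an antiviral ubiquitin ligase that p53 is also known to induce, lay closer to its DMSO level. It read 359, 368 and 336 in proliferating cells, 1753, 1675 and 1767 under DMSO, and 1348, 1349 and 1305 under ruxolitinib. That was 1.91 ± 0.06 above proliferating cells and -0.38 from DMSO (limma adjusted p 0.000804). IFIT1, of the same family as IFIT2, read 47.7, 77.6 and 58.1, then 3422, 3578 and 3360 under DMSO, then 184, 171 and 171 under ruxolitinib. IFIT1 thus lay 1.53 above proliferating cells and -4.29 from DMSO, while for IFIT2 the corresponding differences were 3.72 and -1.98.

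Smaller remainders were seen for ISG15, the ubiquitin-like modifier (1.22), IFI44 (1.22), IFIT3 (1.09), the RNA sensors DHX58 (1.28) and RIGI (0.90), the death ligand TNFSF10 or TRAIL (1.33) and HERC6 (0.77). The guanylate-binding protein GBP3 (0.76), the nuclear body protein SP110 (0.56) and STAT2 (0.81) were also called higher. RSAD2, the antiviral enzyme viperin, had 0 reads in all 3 proliferating libraries and 10.0, 8.10 and 9.02 normalized counts under ruxolitinib. It was at least 2.92-fold higher, against a floor of 3 reads per library. OAS2 had a ratio of 8.29 (95% counting interval 2.02 to 73.2), and IFI44L was 1.11 higher at no more than 6.94 normalized counts. BST2, which tethers virions, was called by limma, but its ratio of 4.15 had a counting interval of 0.884 to 38.9, and edgeR and DESeq2 did not call it (adjusted p 0.0804 and 0.0834). Its call was also lost without proliferating library A126 (0.89) or ruxolitinib library A122 (1.02). Of the 32 genes above proliferating cells, 27 kept direction and call under every alternative that tested them. With the filter and fit on the 6 compared libraries alone, 27 of the 32 were tested and 26 called, and OAS2, RSAD2, IFI44L, BST2 and TNFSF10 were not tested.

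**Figure D5:**
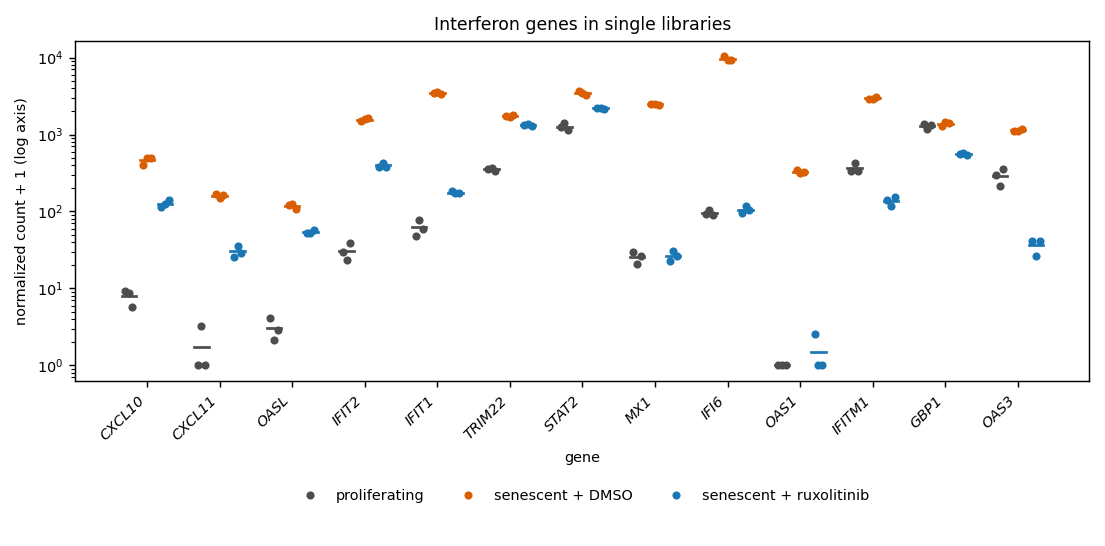
Normalized count + 1 on a log axis for 13 interferon genes, with 1 point per library and a bar at the mean of each group of 3. CXCL10 to STAT2 lie between the other groups under ruxolitinib, MX1, IFI6 and OAS1 lie at the proliferating level, and IFITM1, GBP1 and OAS3 lie below it.

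Other classical interferon targets could not be told from the proliferating level. MX1, a dynamin-like antiviral GTPase, read 29.1, 20.0 and 25.7 in proliferating cells, 2495, 2507 and 2428 under DMSO, and 21.6, 29.7 and 25.3 under ruxolitinib. The ruxolitinib and proliferating ranges overlapped, with a difference of 0.04 ± 0.21 (limma adjusted p 0.88), and a difference from DMSO of -6.56. IFI6, a mitochondrial protein, read 91.3, 102 and 89.5, then 10410, 9241 and 9204 under DMSO, then 94.9, 117 and 103 under ruxolitinib (0.15 ± 0.24 from proliferating). OAS1, an RNA-sensing synthetase, had 341, 311 and 324 under DMSO, 0 in every proliferating library, and 1.54, 0 and 0 under ruxolitinib. A count of 0 allows up to 3 reads per library, so no difference between the latter groups was detectable for OAS1 at this depth. MX2 (-0.24) and the RNA sensor IFIH1 (-0.23) were not called either.

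A further set fell below the proliferating level. OAS3, of the same enzyme family as OAS1, read 293, 213 and 352 in proliferating cells, 1101, 1122 and 1162 under DMSO, and 40.1, 25.2 and 40.6 under ruxolitinib (-2.98 ± 0.27; limma adjusted p 7.71e-08). IFITM1, which blocks viral fusion, read 339, 427 and 336, then 2880, 2923 and 3046, then 140, 117 and 152 (-1.43 ± 0.17 from proliferating), with the limit that IFITM genes are close copies. Both genes were high under DMSO and lowest under ruxolitinib, and the groups did not overlap. XAF1, a proapoptotic protein (-1.76), the ADP-ribosyltransferase family members PARP9 (-1.55) and PARP12 (-1.18), and PLSCR1 (-1.41) were also lower than in proliferating cells.

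GBP1, a guanylate-binding protein, showed another order. It read 1350, 1184 and 1347 in proliferating cells, 1290, 1435 and 1403 under DMSO, and 558, 572 and 546 under ruxolitinib. Proliferating and DMSO libraries overlapped for GBP1, and the ruxolitinib libraries were lower (-1.21 ± 0.07 from proliferating). The DNA sensor IFI16 was likewise called lower under ruxolitinib (-1.30 from proliferating; 0.08 for DMSO, not called), as was NLRC5, the activator of MHC class I genes (-0.78; 0.12 for DMSO, not called). CGAS, the cytosolic DNA sensor, and CD274, which encodes PD-L1, were below proliferating cells in both senescent groups: CGAS by -1.54 under ruxolitinib and -1.19 under DMSO, and CD274 by -1.50 and -0.95. The cytokine IL15 (-1.12 and -0.59) and GBP2 (-0.99 and -0.49) lay likewise.

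Of 21 antigen presentation genes on the list, 11 were tested. None of the 11 was called higher and 6 were lower (54.5%), where 32.6% and 39.5% of all tested genes were. The 6 included HLA-B (-0.68) and B2M, the class I light chain (-0.32, lost with the rescalings). HLA-C, HLA-F, TAP1, PSMB8 and PSMB9 were listed at or near 0 in all groups, so their levels cannot be read from the table. How multi-mapping reads were treated is not given, so the level of HLA-B may have the same limit. Of the 39 interferon genes below proliferating cells, 28 kept direction and call under every alternative that tested them. With each of the rescalings 36 of the 39 kept direction and 28 kept the call. ADAR and TRIM25, each -0.16, were among those that changed sign with both rescalings. IRF9 (-0.23) was among those that lost their call with them. ADAR also lost its call without A125, A127, A122, A123 or A124 (-0.16 to -0.11), and IRF9 without A126, A122, A123 or A124 (-0.23 to -0.15).

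Transcripts of the interferon receptors and signalling factors were detected. Of 5 receptor genes 3 were higher under ruxolitinib: IFNAR1 (0.53), IFNGR1 (0.45) and IL10RB (0.47). IFNAR1 was the 1 interferon list gene called above DMSO (0.25; limma adjusted p 0.0188). Of 9 tested kinases and factors 6 were lower than in proliferating cells and STAT2 was the 1 called higher. STAT2 read 1256, 1392 and 1129 in proliferating cells, 3692, 3472 and 3292 under DMSO, and 2242, 2202 and 2149 under ruxolitinib. The interferon ligands were too low to test. IFNA1, an interferon alpha gene, came closest, with a mean of 9.90 over the 12 libraries. It read 3.11, 5.55 and 0 in proliferating cells, 7.92, 14.2 and 17.3 under DMSO, and 15.4, 11.7 and 12.6 under ruxolitinib. The proliferating and ruxolitinib libraries did not overlap for IFNA1, with 8 reads against 47 in total, a ratio of 4.59 that has no test. Interferon alpha genes are close copies whose reads may be shared. IFNB1 had 0 in each proliferating library, 2.97, 3.55 and 3.47 under DMSO, and 1.54, 2.70 and 0 under ruxolitinib.

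The list of cytokine receptors, JAK-STAT factors and feedback genes had 26 tested members, 7 higher (26.9%) and 11 lower (42.3%) than in proliferating cells, beside 32.6% and 39.5% of all genes. By role, 7 of 11 inhibitors were lower and 1 higher, 2 of 8 receptors were lower and 3 higher, and 2 of 7 kinases and factors were lower and 3 higher. SOCS3, an inhibitor induced through STAT3, read 594, 654 and 633 in proliferating cells, 491, 547 and 577 under DMSO, and 317, 299 and 279 under ruxolitinib (-1.07 from proliferating, -0.85 from DMSO). PIM1, a kinase induced by STAT factors, fell by 2.04 from the proliferating level and by 0.51 from DMSO. SOCS1 (-1.97), SOCS2 (-1.55) and CISH (-1.15) were lower than in proliferating cells, and under DMSO their differences were -2.06, -1.58 and -1.10. The receptor genes IL6R (2.12) and GHR, the growth hormone receptor (2.47), were among the 3 higher receptors.

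Outside the interferon list, the largest falls from DMSO among genes called against both groups were SLC15A3, an endolysosomal peptide transporter (-2.91), the transcription factor BATF2 (-2.53), HELZ2 (-2.05), DDX60L (-1.96) and TRIM14 (-1.86). Each was called higher under DMSO than in proliferating cells (1.57, 3.69, 1.69, 1.65 and 0.82). Absence from the list does not mean that a gene is not induced by interferon. BATF2 was called above proliferating cells (6.23, 12.2 and 5.71 against 21.6, 26.1 and 10.8; 1.17 ± 0.34), though 1 ruxolitinib library lay below the highest proliferating one. SLC15A3 read 72.6, 64.3 and 73.3 in proliferating cells, 230, 181 and 223 under DMSO, and 32.4, 19.8 and 30.7 under ruxolitinib, below both. TRIM14 was also below proliferating cells (-1.04), as were HELZ2 (-0.37) and DDX60L (-0.31), whose calls were lost with the rescalings. The genes furthest above DMSO after TNFRSF10D were IGFBP2 (0.68), SLC35E2A (0.67) and ITGB8, an integrin subunit (0.64). SLC35E2A has a near-identical copy. The difference of ITGB8 from proliferating cells (0.44) lost its call without proliferating library A125 (0.44) or A126 (0.41) or ruxolitinib library A122 (0.43) or A123 (0.37).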

How the data were processed

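Poly(A)-captured RNA of 12 IMR90 libraries was sequenced, per the labels. Per the submitters' processing notes, Trimmomatic 0.38.1, HISAT2 2.2.1, featureCounts 2.0.3, FastQC, MultiQC and DESeq2 were used with hg38; the treatment of multi-mapping reads is not given in the sources used here. The authors deposited 1 table of normalized counts (a signal that is never negative) for 16383 genes, ending at Entrez gene 140467; genes with higher numbers were not analysed here. Column names give the group and a library number. All 160380 values above 0 were whole multiples of a library's step within 0.01 (100%), so reads could be recovered.

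Genes with a mean of at least 10 over 12 libraries were tested with limma 3.58.1 (R 4.3.3) on log2(normalized count + 1), with 4 group means, a variance trend and Benjamini-Hochberg adjustment. This scale understates changes of low genes. Ratios use reads with exact 95% intervals, and intervals and floors cover counting error only. The limma fit was tested on simulated data in which few genes changed, equally many up and down. That test cannot speak to the dependence on scaling. Alternatives were pseudocounts 0.1 and 5, no filter or a mean of 50, equal library totals or equal upper quartiles, no variance trend, only the 6 libraries compared, each library left out, and edgeR 4.0.16 and DESeq2 1.42.0 on recovered reads (4085 and 4012 genes higher, 4069 and 4031 lower). Named genes were the 12 largest called changes in each direction (the higher group's mean 100 or more, no overlap of libraries), list members, and the 5 largest differences from DMSO in each direction outside the interferon list (called against both groups, mean of at least 100 in some group). The gene lists, members and tests were chosen with earlier results of these data known, so lists are described by counts and medians, with no set test. Single genes that the rule or lists cover but the text does not name are not reported here; counts over lists include them. Promoter sequences are RefSeq's, matched by gene identifier.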

Additional observations from a re-analysis of the deposited data

How the results depend on the processing

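No paired analysis was possible because the columns carry library numbers and not the replicate numbers of the labels, so the replicate block was not run. The count of genes at least 2-fold higher than in proliferating cells was 715 with a mean of at least 50 and 2183 with no filter, which test fewer and more genes. Equal library totals and equal upper quartiles left 7 and 8 secretory genes lower and put 6 matrix and contractile genes higher under each, and turned the medians of the interferon list (0.0948 and 0.0665) and of the cytokine receptor and feedback list (0.111 and 0.0831) positive. The interferon median was 0.0193 with no filter. Leaving out 1 library gave 1 to 2 lysosomal genes lower (2 without proliferating library A126). Genes named above that changed sign had small values: ADAR (0.0492 and 0.0207) and TRIM25 (0.0403 and 0.0119) with equal totals and equal upper quartiles. BAX changed sign with those scalings (0.198 and 0.170), edgeR (0.0549) and DESeq2 (0.0533). With 1 library left out BAX ran from -0.0710 to 0.0845, MX1 from -0.106 to 0.154 and OAS1 from 0 to 0.673, none of them called. The cause of these changes was not tested beyond the rescaling itself. The interferon counts ran from 30 to 34 higher and from 33 to 36 lower when 1 library was left out. Leaving out DMSO libraries was chosen after seeing the data and gave 68 to 72 interferon genes below DMSO. Genes under about 10 normalized counts, such as OAS2 and BST2, are limited by counting error.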
